A study of Quercus suber with 11 samples.

Results

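Innercork of cork oak (Quercus suber) harvested in July was compared with innercork harvested in June, to describe which genes differed between these summer harvests. The comparison takes 7 of the 11 trees of the series, 4 of July and 3 of June, and every locus with a mean regularized log (rlog) value over the 11 trees of at least log2 of 10, which left 22426 of 32024 loci. Innercork is the living cork tissue at the inner side of the plank, phellem together with phellogenic cells, and here it was taken from virgin cork, the cork of a first debarking, of trees that grew wild in a forest. All groups had the same tissue, with no treatment, and polyA RNA was sequenced. Each tree was sampled in 1 month only, so the month and the individual trees taken in it cannot be told apart. The genotype of the trees and the hour of harvest are not given in the sources used here. The 4 April trees entered the fit only to help estimate the spread between trees.

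Phellogen, the cork cambium, divides to give phellem cells, which expand, lay suberin inside their walls and die. Suberin is a polyester of long-chain fatty acids, glycerol and ferulate, and its acyl chains begin as fatty acids made in plastids. Cork is produced through the growing season, so a harvest holds cells at several of these steps. In such bulk tissue, fewer cells of a type and less RNA per cell cannot be told apart.

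Most loci differed little between July and June. To make the rlog values the authors divided counts by a size factor per library and shrank loci with few reads toward their mean. The scale is that of log2, and log2FC below is the July mean minus the June mean of rlog. The depth of the libraries is unknown from these values, and the precision is that of the spread between trees. The median absolute log2FC was 0.192. With limma and Benjamini-Hochberg adjustment over all 22426 loci, 1 locus passed an adjusted p of 0.01 with an absolute log2FC above 1 (0.00446% of the loci), and it was higher in July. The second smallest adjusted p was 0.069. The paper, with DESeq2 on counts and the same thresholds, reported more loci between June and July than this fit. At an unadjusted p under 0.05 there were 2003 loci (8.93%), of which 1002 were higher (4.47%) and 1001 lower (4.46%) in July. All 4 July trees lay above all 3 June trees at 1146 loci (5.11%) and below them at 1251 loci (5.58%). When also an absolute log2FC above 1 was asked for, 122 loci were higher (0.544%) and 130 lower (0.58%). When each locus was ranked within its own tree, the trees were apart at 1085 loci higher and 1114 lower in July, and 1924 loci were apart in the same direction on both scales. Every locus named below other than LOC112022594 had an adjusted p of at least 0.069 (limma, Benjamini-Hochberg) with all trees, and ± after a log2FC is its SE. With 1 tree left out, fewer trees can overlap, and the loci apart were 1617 to 2263 higher and 1680 to 2345 lower in July. Counts of list members given below without 1 tree can likewise only stay or rise, so a larger count alone says little about the list. These shares are the background against which the gene groups below are read, and none of the group counts is a test.

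Among the loci with the most reads, more were lower than higher in July. In the highest of 10 bins of equal size, with a mean rlog of 11.57 or more, not divided by gene length, July trees lay below June trees at 321 of 2242 loci (14.3%) and above them at 95 (4.24%), with a median log2FC of -0.11. In the lowest bin 2.05% were below and 4.01% above. July replicate 4 stood apart from the other July trees. Loci of ribosomal RNA took 14.7% of its summed linear values, against 3.76% to 5.87% in the other July trees and 5.4% to 9.26% in June trees. The mean over the early stress regulators was 9.38 in it and 7.57 to 7.82 in the other July trees. Only part of the markers of neighbouring tissues reached the level for testing. Of the light harvesting and RuBisCO markers 7 of 20 loci were tested, of the phloem markers 10 of 22 and of the xylem vessel markers 3 of 6. The mean over the xylem vessel markers was 3.01 to 4.69 in July trees and 3.15 to 4.96 in June trees, and each range was topped by a single tree with high XCP1 (LOC112002930), a protease of dying vessel cells. The mean over the light harvesting markers was 6.42 to 6.67 in July trees and 6.53 to 6.68 in June trees, and over the phloem markers 6.83 to 7.91 and 7.47 to 7.64. Single markers lay far above these means. RBCS3B (LOC112025335) had 11.3 to 11.8 in July trees and 11.2 to 11.9 in June trees. SEOR1 (LOC111994151), of sieve elements, had 12.4 to 14.5 and 14.0 to 14.6. Its homolog LOC112027469 was at 6.97 in July replicate 4 and at 10.9 to 12.3 in the other July and June trees. The trees of both months overlapped on all of these lists, and of their tested loci only RCA (LOC112022383), the activase of RuBisCO, did not overlap, being lower in July. Without June replicate 3 or July replicate 4 it was 2 loci of its list.

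**Figure D1:**
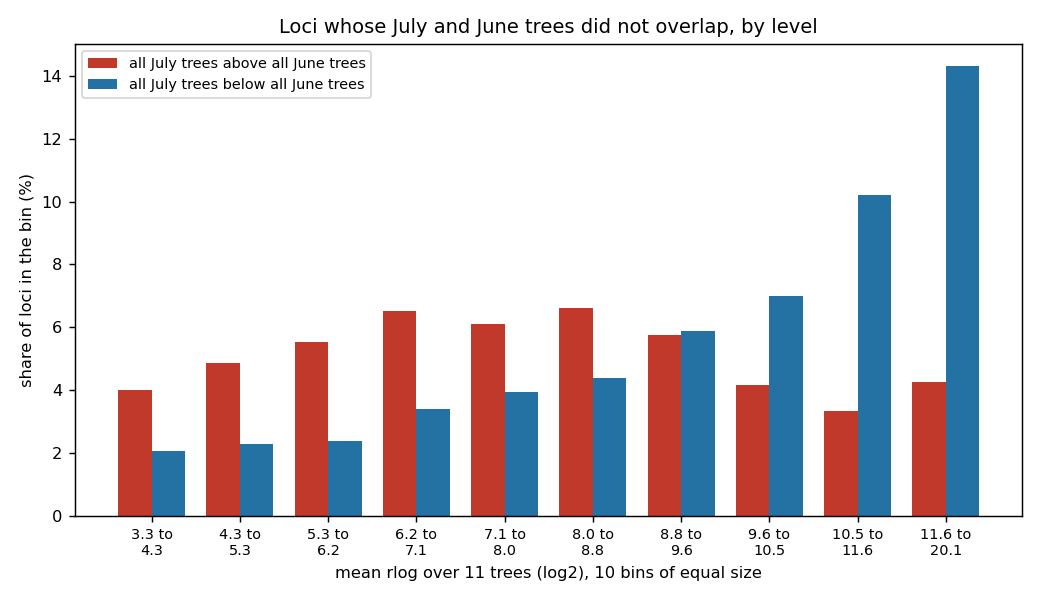
Share of loci (percent) at which all 4 July trees lay above or below all 3 June trees, in 10 bins of equal size from the lowest to the highest mean rlog. The share below grew to 14.3% in the highest bin, where the share above was 4.24%.

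The locus that passed the test was LOC112022594, a homolog of Arabidopsis AT5G59240 (RPS8B), which encodes a protein of the small ribosomal subunit. Its rlog was 9.73, 9.59, 9.75 and 9.84 in the 4 July trees, against 5.74, 6.94 and 5.61 in the 3 June trees. The July trees were close to each other and far above every June tree, and the 4 April trees were as high as those of July, at 9.80 to 10.72. It rose by a log2FC of 3.63 ± 0.31 (SE) in July, with an adjusted p of 0.00658 (limma, Benjamini-Hochberg). Its log2FC stayed between 3.39 and 4.06 when each tree was left out in turn, with an adjusted p of at most 0.0487 (limma, Benjamini-Hochberg). The call at 0.01 was lost without April replicate 2, 3 or 4, without June replicate 1 or 3, without any 1 of the July trees, with weights per tree (adjusted p = 0.0217) and in a fit of June and July trees alone (adjusted p = 0.0777). The 3 other homologs of RPS8B differed far less, with a log2FC of 0.28 at LOC112022593, 0.36 at LOC112039094 and 0.36 at LOC111988287. Near-identical copies can share reads, so how the reads were divided among these loci is uncertain. LOC112022595, a homolog of AT5G45920 (an esterase of the SGNH type), had 5.93, 5.15, 5.75 and 5.87 in July trees and 8.53, 7.32 and 6.99 in June trees. It was lower in every July tree, with a log2FC of -1.94 ± 0.36 (SE) that did not pass the test (adjusted p = 0.256, limma, Benjamini-Hochberg).

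Ribosomal protein genes as a group were mostly higher in July. Of the 38 tested loci of the list, LOC112022594 included, 35 were higher in July and 19 had all July trees above all June trees (5.11% of all loci). The list had a median log2FC of 0.36, against -0.000195 over all loci, and no member lay below without overlap. The mean over the list was 11.32, 11.08, 11.28 and 11.25 in July trees and 10.70, 10.88 and 10.83 in June trees, so that the months did not overlap although the list lies among well-read loci, with 19 members in the highest bin. RPS9C (LOC112032065), a small subunit protein, had 10.24, 10.30, 10.29 and 10.47 in July trees and 9.44, 9.46 and 9.83 in June trees, a log2FC of 0.75. RPS5B (LOC111994058), of the same subunit, had 11.83, 11.52, 11.78 and 11.69 in July trees and 10.71, 10.92 and 11.25 in June trees, a log2FC of 0.74. For RPL10B (LOC112007260), a protein of the large subunit, the log2FC was 0.69. The same direction was seen in nucleolar proteins that guide the modification of ribosomal RNA, where 3 of 9 loci lay above without overlap and the median log2FC was 0.41. Without July replicate 4 it was 5 loci. The GAR1 homolog (LOC112003372), a core protein of these particles, had 10.17, 10.11, 10.08 and 10.19 in July trees and 9.30, 9.37 and 9.72 in June trees (log2FC 0.67 ± 0.15). FIB2 (LOC112039444), the fibrillarin that methylates ribosomal RNA, had 11.64, 11.26, 11.50 and 11.50 in July trees and 10.69, 10.69 and 11.06 in June trees (log2FC 0.66 ± 0.16). None of these loci but LOC112022594 passed the test, and the share of ribosomal RNA differed between trees as given above, whose part in these values was not tested.

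**Figure D2:**
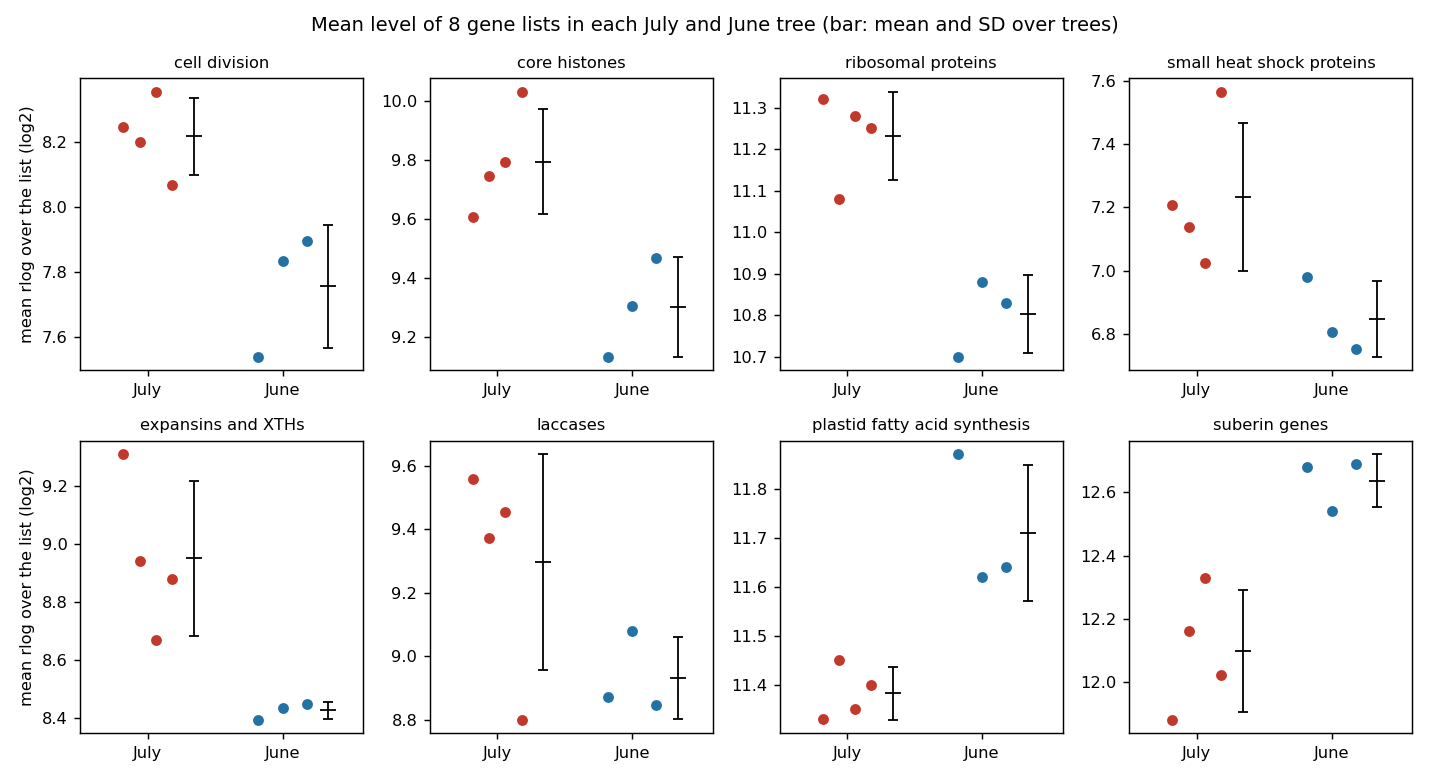
Mean rlog (log2 scale) over the tested members of 8 gene lists in every tree, with the 4 July trees left of the 3 June trees and bars for mean and SD. Cell division, histone and ribosomal protein lists were higher in all July trees, and the suberin and plastid fatty acid lists lower.

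Genes of the cell cycle formed another group that was higher in July. Of 54 tested loci of cyclins, cyclin-dependent kinases and licensing factors, 45 were higher in July, with a median log2FC of 0.56. Every July tree lay above every June tree at 15 of them (27.8%, against 5.11% of all loci), and no locus was lower without overlap. Averaged over the list, the level was 8.25, 8.20, 8.36 and 8.07 in July trees and 7.54, 7.83 and 7.90 in June trees. None of its members was in the highest bin by level. TSO2 (LOC112005137), the small subunit of ribonucleotide reductase that supplies nucleotides for DNA synthesis, had 11.28, 11.26, 10.84 and 10.75 in July trees and 9.85, 9.72 and 10.06 in June trees. Its log2FC was 1.15 ± 0.22 (SE; adjusted p = 0.256, limma, Benjamini-Hochberg). CYCD3;1 (LOC112022222), a cyclin of the entry into the cycle, had 9.98, 8.73, 9.15 and 8.45 in July trees and 8.17, 7.70 and 7.90 in June trees (log2FC 1.15 ± 0.31). A second homolog of it, LOC112038380, had 10.19, 10.66, 10.25 and 9.85 in July trees and 9.30, 9.56 and 9.44 in June trees. Both copies were thus higher in every July tree, by a log2FC of 1.15 and 0.80. Among the licensing factors, MCM7 (LOC112007744) and MCM5 (LOC112040109), parts of the helicase that opens DNA for replication, had a log2FC of 0.89 and 0.86. CYCB1;3 (LOC112030811), a mitotic cyclin, had 9.68, 9.32, 10.06 and 9.53 in July trees and 8.10, 9.13 and 8.87 in June trees (log2FC 0.94 ± 0.25). Its second homolog, LOC112030793, went the other way with overlapping months (log2FC -0.40 ± 0.38). CDKB2;2 (LOC112029960), a kinase of plants that acts around mitosis, had 10.54, 10.37, 10.94 and 10.70 in July trees and 9.47, 9.92 and 9.91 in June trees (log2FC 0.87 ± 0.17). Leaving out a tree cannot lower such a count, here or over all loci. Without July replicate 4, 26 members did not overlap, and 24 without June replicate 2.

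DNA replication and histone genes, both added to the lists after their values were seen, were arranged likewise. Of 32 replication loci 9 were higher (28.1%, against 5.11% of all loci) and 1 lower without overlap, with a median log2FC of 0.29. DPB2 (LOC112038614), a subunit of DNA polymerase epsilon, had 7.91, 8.25, 8.09 and 8.14 in July trees and 6.85, 6.76 and 7.43 in June trees, a log2FC of 1.09 ± 0.21 (SE; adjusted p = 0.256, limma, Benjamini-Hochberg). DUT1 (LOC112026968), which keeps uracil out of DNA, had 10.47, 11.08, 10.62 and 11.29 in July trees and 9.52, 9.84 and 10.09 in June trees (log2FC 1.05 ± 0.22). The exception was a pair of homologs of RPA70B, the large subunit of the protein that coats single-stranded DNA. LOC112017680 had 10.16, 10.36, 10.37 and 9.68 in July trees and 8.73, 9.02 and 9.45 in June trees, and LOC111999485 had 3.82, 3.78, 3.80 and 3.84 in July trees and 4.67, 4.97 and 5.22 in June trees. The months did not overlap at either copy, in opposite directions, with a log2FC of 1.08 ± 0.22 and -1.14 ± 0.16. Of 45 core histone loci 18 were higher (40%) and 0 lower without overlap, and the median log2FC was 0.49. H2A.X (LOC112001489), the variant that marks DNA breaks, had 10.36, 10.56, 10.76 and 11.35 in July trees and 8.89, 9.44 and 9.94 in June trees, a log2FC of 1.33 ± 0.26 (SE). Its other tested homologs differed far less and their months overlapped, with a log2FC of 0.29 at LOC112027933 and 0.17 at LOC112001488. At the histone H3 homologs of AT3G27360, 5 of 7 loci were higher without overlap, with a median log2FC of 1.15 over the 7. One of them, LOC112020157, had 10.37, 10.62, 11.03 and 11.11 in July trees and 8.99, 9.54 and 10.09 in June trees (log2FC 1.24 ± 0.26). At the H4 homologs of AT5G59970 it was 5 of 10 loci, with a median of 0.59. Histone copies are nearly identical and reads may be shared among them, so these loci are not separate observations. AUR3 (AT2G45490), a kinase of mitotic chromosomes, was higher without overlap at 2 of 3 loci.

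Of the 4 tested loci of phellogen markers 1 was higher in July without overlap. WOX4 (LOC111988759), a homeobox factor of cambium cells, had 11.27, 11.60, 10.96 and 10.88 in July trees and 10.72, 10.51 and 10.87 in June trees (log2FC 0.48 ± 0.21) and did not overlap. ANT (LOC111985236), an AP2 factor of growing organs and cambium, had 12.65, 12.83, 12.20 and 11.22 in July trees and 11.69, 11.30 and 11.56 in June trees (log2FC 0.71 ± 0.33), so that July replicate 4 lay below all June trees. Averaged over the 4 loci, the level was 9.85, 10.06, 9.97 and 9.19 in July trees and 9.28, 9.24 and 9.36 in June trees. Without July replicate 4, 3 of the 4 markers did not overlap, and without June replicate 2 it was 2. The part of these cells in the values of the cell cycle lists was not tested. Of 27 meristem and cambium regulators in a wider list, 2 were higher without overlap, WOX4 and HAM3 (LOC112020375), a GRAS factor of shoot meristems, and 1 was lower, AGL19 (LOC111989313), a MADS factor. The median log2FC was 0.13, and without July replicate 4 the count higher was 7.

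**Figure D3:**
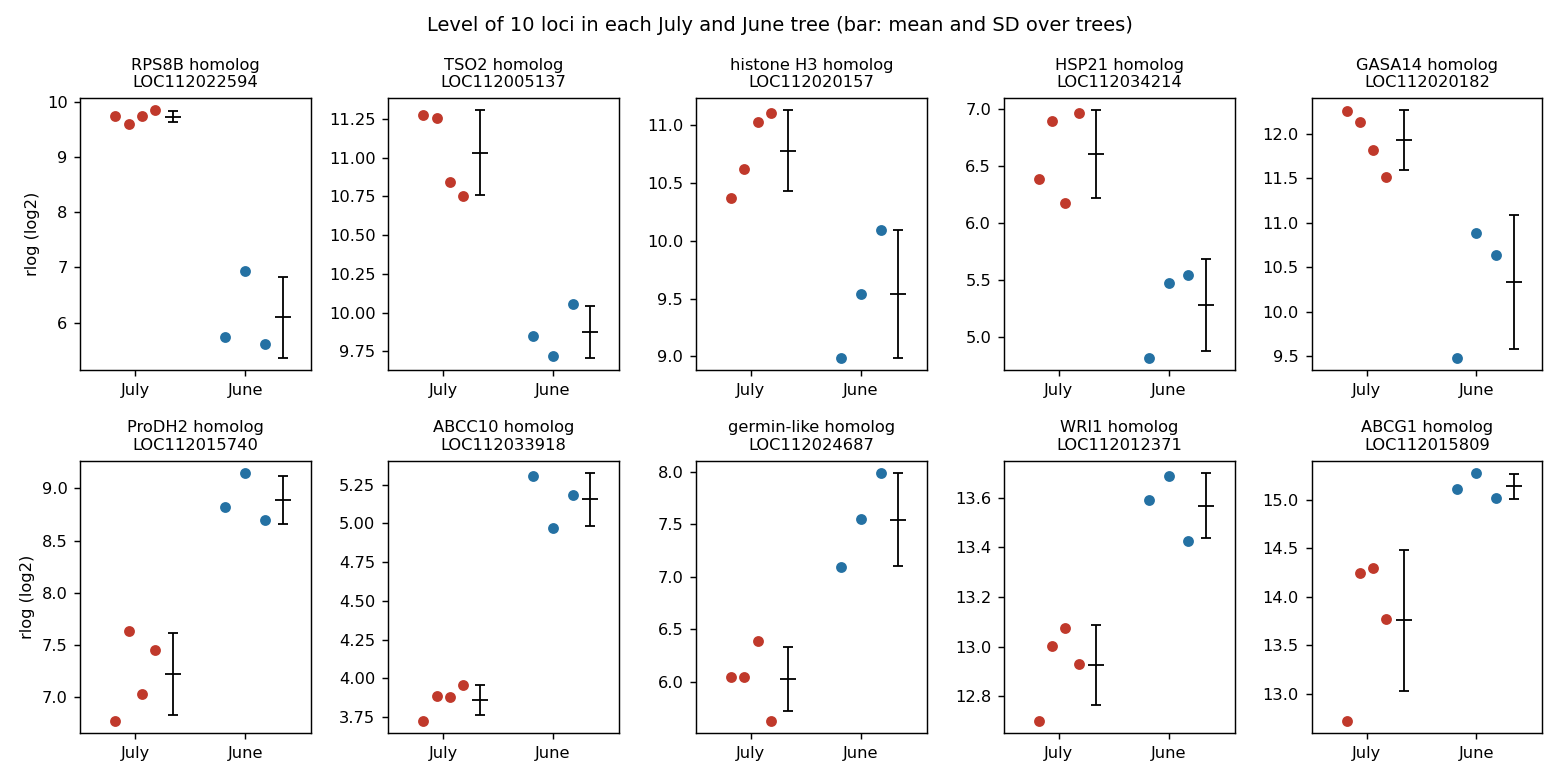
The rlog (log2 scale) of single loci in each tree, with July trees left of June trees, for 10 loci named in the text, with bars for mean and SD. LOC112022594 was between 9.59 and 9.84 in July trees and between 5.61 and 6.94 in June trees.

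Small heat shock proteins, chaperones that hold unfolding proteins in heat, were higher in July in part of the family. Of 42 tested loci 32 were higher in July, 7 of them without overlap (background 5.11%), and none was lower without overlap. The median log2FC was 0.38. The mean over the list was 7.21, 7.14, 7.02 and 7.57 in July trees and 6.98, 6.81 and 6.75 in June trees, while the April trees lay at 5.63 to 6.05. The largest value was that of LOC112024666, a homolog of the cytosolic AT1G53540, which had 9.90, 9.79, 9.53 and 10.65 in July trees and 7.48, 4.04 and 7.73 in June trees. The June trees ranged over more than the difference of the month means. The log2FC of 3.55 ± 0.83 (SE) did not pass the test (adjusted p = 0.273, limma, Benjamini-Hochberg). The other tested homologs of AT1G53540 had overlapping months, with a log2FC from -0.74 at LOC111999036 to 0.95 at LOC112007070. It was 0.37 ± 0.39 at LOC112002958, the homolog with the highest level. HSP21 (LOC112034214), the small heat shock protein of plastids, had 6.39, 6.90, 6.18 and 6.97 in July trees and 4.82, 5.47 and 5.55 in June trees, a log2FC of 1.33 ± 0.25 (SE). Its other homolog, LOC112008682, had higher values and overlapping months, with 10.21, 10.05, 10.11 and 9.98 in July trees and 10.31, 10.25 and 9.48 in June trees (log2FC 0.07 ± 0.30). HSP22 (LOC112016302), of the endoplasmic reticulum, had 8.89, 8.32, 7.78 and 7.16 in July trees and 6.61, 6.01 and 6.77 in June trees (log2FC 1.57 ± 0.40). LOC112036142, a homolog of AT1G52560, had 9.59, 9.07, 10.02 and 9.08 in July trees and 7.69, 8.16 and 8.28 in June trees (log2FC 1.40 ± 0.31). The months overlapped at the other tested homologs of AT1G52560, with a log2FC of 0.64 at LOC112038854 and -0.43 at LOC112038855. At LOC112034214, HSP22 and LOC112036142 every July tree lay above every June tree, and the July trees of HSP22 were the most spread. The count of the list was 14 without July replicate 1, 12 without June replicate 2 and 10 without July replicate 4. Of 65 loci of the larger HSP70, HSP90 and HSP100 chaperones 7 were higher without overlap (10.8%, against 5.11% of all loci), with a median of 0.09. Without July replicate 4 the count was 16. HSP90-4 (LOC111992131), a cytosolic HSP90, had 14.70, 14.43, 14.46 and 14.27 in July trees and 13.73, 13.92 and 13.84 in June trees (log2FC 0.63 ± 0.18). Its other tested homologs were not higher and their months overlapped, with a log2FC of -0.01 at LOC112038792 and -0.73 at LOC112038790. The heat shock factors, a mixed family of transcription factors of the heat response, did not share the direction. Of 17 loci 14 were lower in July, 1 of them, HSFB2A (LOC111997737), without overlap, with a median of -0.12. The count lower was 2 without June replicate 1 or July replicate 2 or 4.

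Several genes of wall loosening were higher in July, and genes of the vacuole membrane differed in direction. Expansins and xyloglucan endotransglucosylases (XTH) are proteins that loosen or remodel growing walls. Of 32 tested loci 6 were higher (18.8%, against 5.11% of all loci) and 2 lower (6.25%, against 5.58%) without overlap. The median log2FC was 0.44. XTH15 (LOC112039092) had 11.32, 11.49, 11.82 and 11.16 in July trees and 8.89, 10.48 and 10.09 in June trees (log2FC 1.63 ± 0.49). EXPA11 (LOC111999997) had 7.68, 7.80, 7.48 and 7.24 in July trees and 5.89, 6.19 and 5.91 in June trees (log2FC 1.55 ± 0.47). The 2 lower members, XTH28 (LOC112005138) and XTH30 (LOC112025227), were lower by less than the higher ones were higher, and they lie in the highest bin by level. GASA14 (LOC112020182), a small secreted protein of the gibberellin-regulated family, had 12.26, 12.13, 11.81 and 11.51 in July trees and 9.48, 10.89 and 10.64 in June trees, a log2FC of 1.59 ± 0.30 (SE; adjusted p = 0.256, limma, Benjamini-Hochberg). In these 3 loci every July tree lay above every June tree. TIP1;1 (LOC112032264), a water channel of the vacuole membrane, had 6.88, 6.54, 7.26 and 6.22 in July trees and 5.32, 5.36 and 5.68 in June trees (log2FC 1.27 ± 0.26). Its other copy, LOC112001048, had 10.35, 10.02, 10.99 and 10.49 in July trees and 11.23, 10.46 and 11.20 in June trees (log2FC -0.50 ± 0.37), and the months overlapped. Both loci of TIP4;1, a channel of the same family, had a log2FC on that side as well, -0.70 at LOC112034958 and -0.71 at LOC112034950, with overlapping months. NHX2 (LOC111987705), which moves potassium and sodium into the vacuole, had 7.14, 7.36, 7.27 and 7.31 in July trees and 6.30, 6.42 and 6.05 in June trees (log2FC 1.01 ± 0.21). Of the 21 aquaporins as a whole 2 were higher without overlap, TIP1;1 and SIP1;2 (LOC112016113), and 0 lower, with a median of 0.11, and without July replicate 4 the count higher was 4. AHA1 (LOC112027252), a proton pump of the plasma membrane, was on the other side, with 14.32, 13.37, 14.04 and 13.77 in July trees and 15.03, 15.22 and 14.74 in June trees (log2FC -1.12 ± 0.22).

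Laccases, copper enzymes that polymerize lignin, differed among themselves. Of 34 tested loci 4 were higher (11.8%, against 5.11% of all loci) and 1 lower without overlap, and the median log2FC was 0.33. LAC2 (LOC111992001) had 11.23, 10.85, 12.39 and 9.39 in July trees and 8.81, 8.62 and 8.70 in June trees. LAC17 (LOC112025438) had 11.83, 11.79, 13.37 and 10.41 in July trees and 9.95, 9.31 and 9.95 in June trees. Their log2FC of 2.25 ± 0.59 and 2.11 ± 0.62 (SE) came with a wide spread among July trees, with replicate 3 highest and replicate 4 lowest in both, and neither passed the test (adjusted p of 0.307 and 0.362, limma, Benjamini-Hochberg). Without July replicate 4, 10 laccases were higher without overlap. So were 10 of the 30 loci of secondary wall cellulose and xylan and 4 of the 14 secondary wall NAC and MYB switches. With all trees it was 0 and 0 for these wall lists. Over all loci such counts rose as well when a tree was left out. Of the 35 monolignol loci, the pathway to the lignin units, 3 were higher and 2 lower without overlap, with a median of -0.16, and the count lower was 4 to 7 without July replicate 2 or 3 or any 1 of the June trees. F5H1 (LOC112033590), which leads to syringyl units, had 8.34, 8.52, 9.86 and 8.12 in July trees and 7.87, 8.11 and 7.08 in June trees (log2FC 1.02 ± 0.43). HCT (LOC112024953) and 4CL2 (LOC111992978), of earlier steps, were lower in every July tree, by a log2FC of -0.38 and -0.44.

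Suberin genes were mostly lower in July. Of 33 tested loci 27 were lower, 13 of them without overlap where 5.58% of all loci were, and none was higher without overlap. The median log2FC was -0.52. Per tree, the list averaged 11.88, 12.16, 12.33 and 12.02 in July trees and 12.68, 12.54 and 12.69 in June trees. ABCG1 (LOC112015809), a transporter that exports suberin precursors, had 12.72, 14.24, 14.30 and 13.77 in July trees and 15.12, 15.28 and 15.03 in June trees, a log2FC of -1.38 ± 0.51 (SE). KCS1 (LOC112008331), an elongase of very long chain fatty acids, had 13.28, 13.58, 13.51 and 12.98 in July trees and 14.64, 14.28 and 13.93 in June trees (log2FC -0.94 ± 0.37). MYB9 (LOC112006609), a transcription factor of suberin synthesis in Arabidopsis, had 13.51, 13.65, 13.51 and 13.47 in July trees and 13.93, 13.93 and 13.82 in June trees (log2FC -0.36 ± 0.13). All 6 tested loci of the phellem markers were lower in every July tree, and these are suberin enzymes themselves, so they are not independent of the list. CYP86A1 (LOC112038977), the hydroxylase of suberin fatty acids, had 17.83, 18.13, 18.12 and 18.22 in July trees and 18.76, 18.76 and 18.45 in June trees (log2FC -0.58 ± 0.31). GELP51 (LOC112009101), a lipase of the GDSL family, had the lowest log2FC among the members without overlap, and this rested on 1 tree, as it had 11.88, 10.67, 11.71 and 6.36 in July trees and 12.63, 12.17 and 12.71 in June trees (log2FC -2.35 ± 1.14). LTPG15 (LOC111994753), a lipid transfer protein, was lower still on average, but its months overlapped, with 3.82, 3.97, 12.49 and 4.33 in July trees and 12.64, 5.01 and 12.71 in June trees (log2FC -3.97 ± 2.89). The list is among the loci with the most reads, and 12 of its 13 members without overlap are in the highest bin, where 14.3% of all loci were lower. After quantile normalization, with 7.98% of the loci of the highest bin lower and 6.47% higher, 7 suberin members and 1 of the 6 phellem markers were lower without overlap.

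The plastid steps that supply acyl chains were lower as well. Of 35 tested loci of fatty acid synthesis in plastids 33 were lower in July, with a median log2FC of -0.37. Without overlap 15 were lower (42.9%, against 5.58% of all loci) and 0 higher. As a mean over these loci, the level was 11.33, 11.45, 11.35 and 11.40 in July trees and 11.87, 11.62 and 11.64 in June trees. MCAMT (LOC112000442), which loads malonyl groups on the acyl carrier protein, had 13.47, 13.42, 13.46 and 13.47 in July trees and 14.11, 14.17 and 14.10 in June trees. The trees of each month were nearly level at this locus, and the log2FC was -0.67 ± 0.13 (SE; adjusted p = 0.256, limma, Benjamini-Hochberg). KAR (LOC111985469), a reductase of chain elongation, had 10.11, 10.58, 10.54 and 10.37 in July trees and 11.29, 11.19 and 11.07 in June trees (log2FC -0.79 ± 0.17). FATB (AT1G08510), the thioesterase that releases saturated chains, was lower without overlap at 2 of 3 loci. The 16 loci of WRI1 and of carbon supply to this pathway, a list added after values were seen, had 9 lower and 0 higher without overlap and a median of -0.43. WRI1 (LOC112012371), the factor that switches on fatty acid synthesis, had 12.70, 13.00, 13.07 and 12.93 in July trees and 13.59, 13.69 and 13.43 in June trees, a log2FC of -0.64 ± 0.12 (SE). PKP-ALPHA (LOC112039681), the plastid pyruvate kinase, had 15.07, 15.23, 15.19 and 15.21 in July trees and 15.79, 15.64 and 15.72 in June trees (log2FC -0.54 ± 0.12). LACS2 (LOC111993942), which activates free fatty acids, had 16.25, 16.91, 16.73 and 16.63 in July trees and 17.37, 17.29 and 17.21 in June trees (log2FC -0.66 ± 0.18). These lists too lie among the loci with the most reads, as 13 of the 15 plastid loci without overlap and 7 of the 9 loci of WRI1 and carbon supply are in the highest bin, where 14.3% of all loci were lower. After quantile normalization 8 of the plastid loci and 8 of the 16 were lower without overlap.

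**Figure D4:**
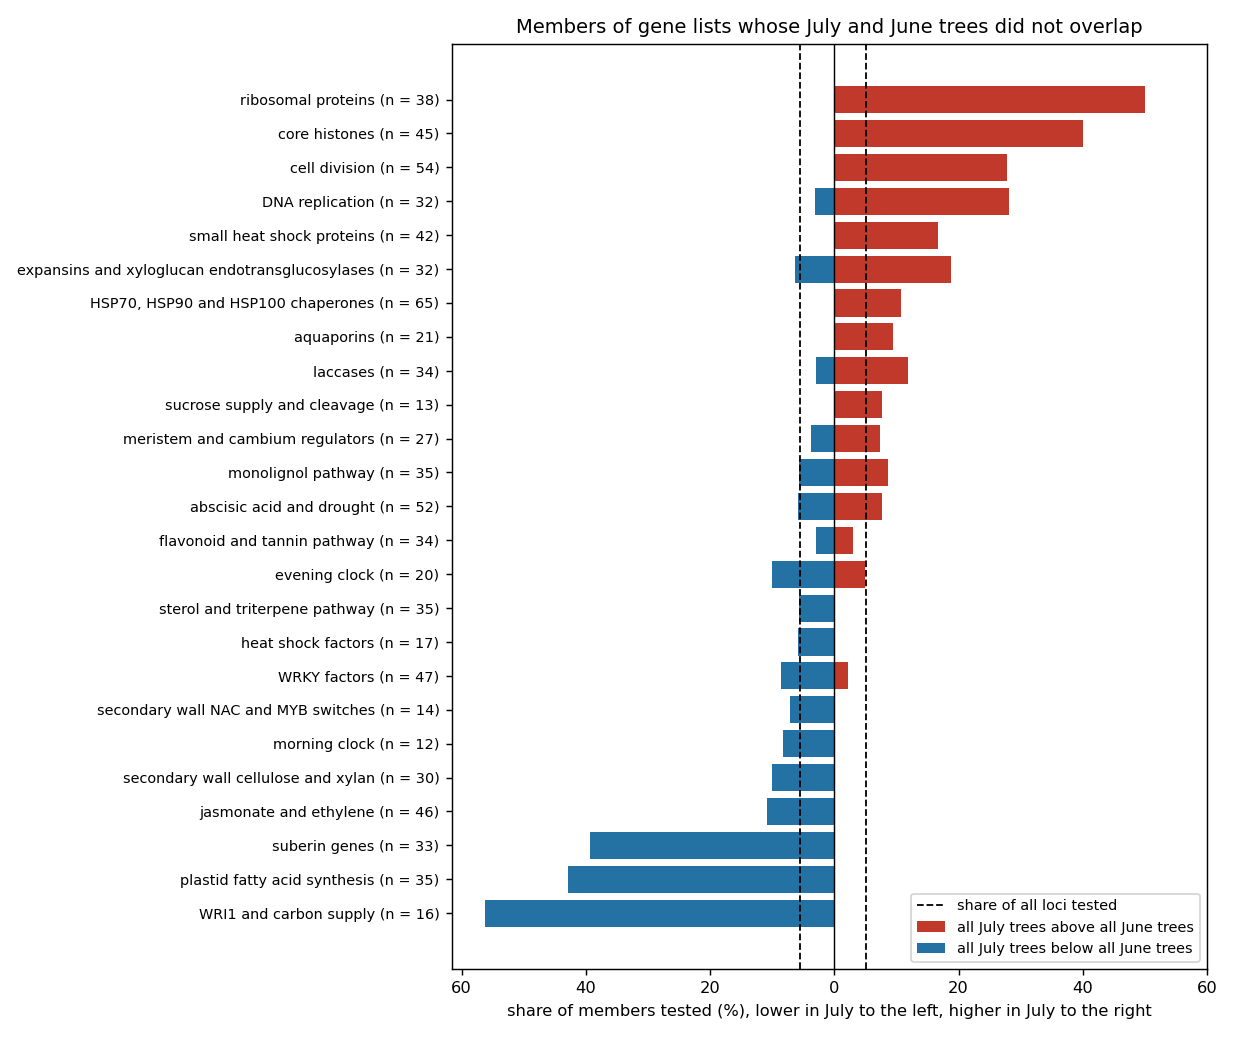
Share of tested members (percent) of each gene list at which all July trees lay above or below all June trees, with dashed lines at the shares over all 22426 loci, 5.11% and 5.58%. Ribosomal proteins, histones and cell division stand out above, and the WRI1, plastid fatty acid and suberin lists below.

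Lower in July with the next smallest adjusted p in the table was ABCC10 (LOC112033918), an ABC transporter, with 3.73, 3.89, 3.88 and 3.96 in July trees and 5.31, 4.97 and 5.19 in June trees, a log2FC of -1.29 ± 0.15 (SE) and an adjusted p of 0.069 (limma, Benjamini-Hochberg). ProDH2 (LOC112015740), a proline dehydrogenase of mitochondria, had 6.78, 7.64, 7.04 and 7.45 in July trees and 8.82, 9.15 and 8.70 in June trees (log2FC -1.66 ± 0.24). F6'H1 (LOC112032285), which makes the coumarin scopoletin, had 11.85, 10.72, 11.26 and 11.64 in July trees and 13.33, 12.83 and 13.39 in June trees (log2FC -1.81 ± 0.28). In these loci the difference of the month means was larger than the range within either month, yet none passed the test after adjustment. A homolog of ASMT (LOC111998585), a methyltransferase of melatonin synthesis, had 8.17, 8.02, 9.01 and 8.57 in July trees and 10.10, 10.18 and 10.03 in June trees (log2FC -1.66 ± 0.32). PAP22 (LOC111997380), an acid phosphatase, had 8.88, 9.48, 8.94 and 9.70 in July trees and 10.62, 10.51 and 10.67 in June trees (log2FC -1.35 ± 0.22). A NAC factor homologous to AT3G15510 (LOC112022217) had 7.84, 7.81, 7.59 and 8.52 in July trees and 9.03, 9.89 and 9.42 in June trees (log2FC -1.51 ± 0.27). Among the loci higher in July, RPM1 (LOC112036529), a disease resistance receptor, stood at 4.43, 4.10, 4.26 and 4.95 in July trees and at 3.15, 3.16 and 3.16 in June trees (log2FC 1.28 ± 0.22), near the lower end of the scale where rlog values are shrunk.

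Families of several loci were compared through their Arabidopsis homolog. Of 1695 Arabidopsis genes with 3 or more tested loci, 34 had at least 50% of them higher without overlap and 28 had at least 50% lower. The clearest were the germin-like proteins of AT5G39110, secreted proteins of the cell wall, at which 5 of 5 loci were lower in every July tree. Their log2FC lay between -2.43 and -1.32, with a median of -1.52, and their gene numbers are consecutive, 12594 to 12598, and reads may be shared among them. LOC112024690 had 5.92, 5.78, 6.58 and 5.05 in July trees and 7.33, 8.82 and 8.64 in June trees (log2FC -2.43 ± 0.50). LOC112024687 had 6.04, 6.04, 6.38 and 5.63 in July trees and 7.10, 7.55 and 7.99 in June trees (log2FC -1.52 ± 0.30). LOX1 (AT1G55020), a lipoxygenase, was lower without overlap at 2 of 3 loci, and its locus LOC111988550 had 15.76, 16.84, 16.12 and 15.53 in July trees and 17.00, 17.06 and 16.87 in June trees (log2FC -0.91 ± 0.28). The 3 homologs of AT3G14690, a cytochrome P450, and 2 of the 4 homologs of AT4G35790 (PLDdelta), a phospholipase of membranes, were lower too. On the other side, all 3 homologs of AT2G39200 (MLO12), a membrane protein of mildew susceptibility, were higher without overlap, with a median of 0.75. Of the 4 homologs of AT4G24570 (DIC2), a carrier of dicarboxylates in mitochondria, 2 were higher, and LOC112004955 had 11.17, 9.92, 9.09 and 9.79 in July trees and 8.90, 8.36 and 9.08 in June trees (log2FC 1.21 ± 0.47). July replicate 3 and June replicate 3 were almost level at this locus.

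Hormone and drought genes were near the background, with single exceptions. Of 52 loci of abscisic acid and drought 4 were higher and 3 lower without overlap, and the median log2FC was -0.07. The count lower was 5 to 7 without July replicate 3 or without any 1 of the June trees. GOLS1 (LOC112028689), which starts the synthesis of raffinose sugars, had 10.64, 11.77, 11.70 and 10.90 in July trees and 10.02, 9.63 and 10.04 in June trees (log2FC 1.36 ± 0.33). Its other tested homolog, LOC112037269, had lower values and overlapping months (log2FC -0.50 ± 0.38). LEA14 (LOC111984784), a protein of late embryogenesis that is also made in drying tissue, had 10.96, 10.62, 10.23 and 10.87 in July trees and 9.44, 10.06 and 9.52 in June trees (log2FC 1.00 ± 0.30). CYP707A2 (LOC111992036), which breaks down abscisic acid, had 6.98, 6.26, 6.19 and 6.03 in July trees and 7.48, 7.62 and 7.15 in June trees (log2FC -1.05 ± 0.30), and its second homolog LOC111985954 was lower in every July tree too. Of 46 loci of jasmonate and ethylene 0 were higher and 5 lower without overlap, 8 without July replicate 3, with a median of -0.11. JAR1 (LOC111985652), which makes the active form of jasmonate, had 10.36, 10.24, 10.47 and 10.14 in July trees and 10.83, 10.68 and 10.77 in June trees (log2FC -0.45 ± 0.13). The others without overlap were AOS (LOC111993945) and AOC4 (LOC112025648), of jasmonate synthesis, and EIN3 (LOC111991923) and ERF1 (LOC112018072), of the ethylene response. Of 47 WRKY factors, transcription factors of stress and defence, 1 was higher and 4 lower, with a median of -0.06, and the count lower was 7 to 9 without July replicate 1 or 4 or June replicate 2 or 3. WRKY74 (LOC112022643) was the higher one, and a further homolog of it (LOC112022657), WRKY22 (LOC111985760), WRKY28 (LOC111998523) and WRKY3 (LOC112034995) were lower. Of the 8 early stress regulators 0 were apart in either direction, with a median of -0.03. Without July replicate 4 it was 3 lower and a median of -0.38, and without July replicate 1 the median was 0.15.

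Other lists held few loci without overlap. Of the 12 loci of the morning clock 0 were higher and 1 lower, with a median of -0.02, and of the 20 of the evening clock 1 was higher and 2 lower, with a median of -0.01. The loci were RVE1 (LOC111984846), a MYB-like factor linked to auxin, on the morning list, and CDF3 (LOC111998722) on the higher and CDF2 (LOC112006803) and COR27 (LOC112011064) on the lower side of the evening list. Without July replicate 1 the morning list had 2 lower. CDF2, a repressor of the flowering gene CONSTANS, had 5.46, 5.69, 5.04 and 4.48 in July trees and 6.12, 6.32 and 5.88 in June trees (log2FC -0.94 ± 0.32). The 35 loci of sterols and triterpenes had 0 higher and 2 lower, SQS1 (LOC112001025), the squalene synthase, and LUP4 (LOC111984353), a triterpene cyclase, with a median of -0.19 over the list. Without any 1 tree of July or June the count lower was 4 to 6. Of 34 loci of flavonoids and tannins 1 was higher and 1 lower, with a median of 0.09, and the count higher was 4 without July replicate 4, 3 without June replicate 1 or 3 and 2 without July replicate 2. The lower one was CHS (LOC112027570), chalcone synthase, the first step of the flavonoid pathway, with 10.60, 10.64, 10.53 and 11.30 in July trees and 11.41, 11.61 and 11.50 in June trees (log2FC -0.74 ± 0.19). The higher one was F3'H (LOC111992279), a flavonoid hydroxylase. Of the 13 loci of sucrose supply 1 was higher, SUS6 (LOC111984867), a sucrose synthase, and 0 lower, and without June replicate 2 it was 2 higher. Secondary wall cellulose and xylan had a median of 0.23, and 22 of 30 loci were higher in July, 0 of them without overlap. The 3 loci lower without overlap were CTL2 (LOC112030587), COBL4 (LOC112009799) and GUX2 (LOC112024124). COBL4, a protein of cellulose deposition in secondary walls, had 7.17, 6.81, 6.90 and 7.40 in July trees and 7.80, 8.13 and 7.92 in June trees (log2FC -0.88 ± 0.23), and GUX2, a glucuronosyltransferase of xylan, was low in July replicate 2 at 5.01. The NAC and MYB switches had a median of 0.25, and 8 of 14 loci were higher in July, 0 of them without overlap. Lower without overlap was 1 locus, MYB52 (LOC111984334).

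Many of the loci with the largest log2FC were high in some trees and low in others of the same month. A locus was called split when its values within 1 month ranged over more than 3 on the log2 scale, which held for 1366 of the tested loci (6.09%). Of the 12 loci with the largest log2FC among those higher without overlap 10 were split, and of the 12 lower 11 were, but 0 of the 24 loci with the largest t. Among the 252 loci without overlap and with an absolute log2FC above 1, 55 were split (21.8%), 38 among April trees, 24 among July trees and 5 among June trees, and some in more than 1 month. The pseudogenes LOC111989138 and LOC111989135, which follow each other in the gene numbering, had the same trees high and low. LOC111989138 had 3.29, 2.93, 7.85 and 3.46 in July trees and 9.08, 8.38 and 8.53 in June trees (log2FC -4.28 ± 1.68), and LOC111989135 had 3.25, 3.07, 7.43 and 3.39 in July trees and 7.70, 7.50 and 7.64 in June trees (log2FC -3.33 ± 1.53). July replicate 3 was with the June trees at both, and so was April replicate 3. LOC112034045, a homolog of AT5G35090, had 6.42, 6.68, 6.54 and 6.65 in July trees and 3.57, 3.62 and 3.72 in June trees (log2FC 2.93 ± 1.04), while the April trees were at 3.35, 3.46, 6.94 and 8.34. This locus passed the test only when April trees were left out (log2FC = 2.93, adjusted p = 0.00593, limma, Benjamini-Hochberg). A locus chosen after its values were seen, LOC112017877, is a homolog of the plastid enolase ENO1 (AT1G74030), which makes the precursor of plastid pyruvate. It had 5.31, 5.08, 11.20 and 5.51 in July trees and 11.38, 11.14 and 11.28 in June trees. Without July replicate 3 it passed the test with a log2FC of -5.96 and an adjusted p of 1.14e-05 (limma, Benjamini-Hochberg). That fit leaves out the only July tree at the June level, so this p is no support for a difference between the months. With all trees the months overlapped at LOC112017877, and its adjusted p was 0.326 (limma, Benjamini-Hochberg). Its other homolog, LOC111989312, had 12.68, 12.83, 11.54 and 12.72 in July trees and 12.22, 11.83 and 11.72 in June trees (log2FC 0.52 ± 0.56), so that the tree high at the one copy was the lowest of July at the other.

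**Figure D5:**
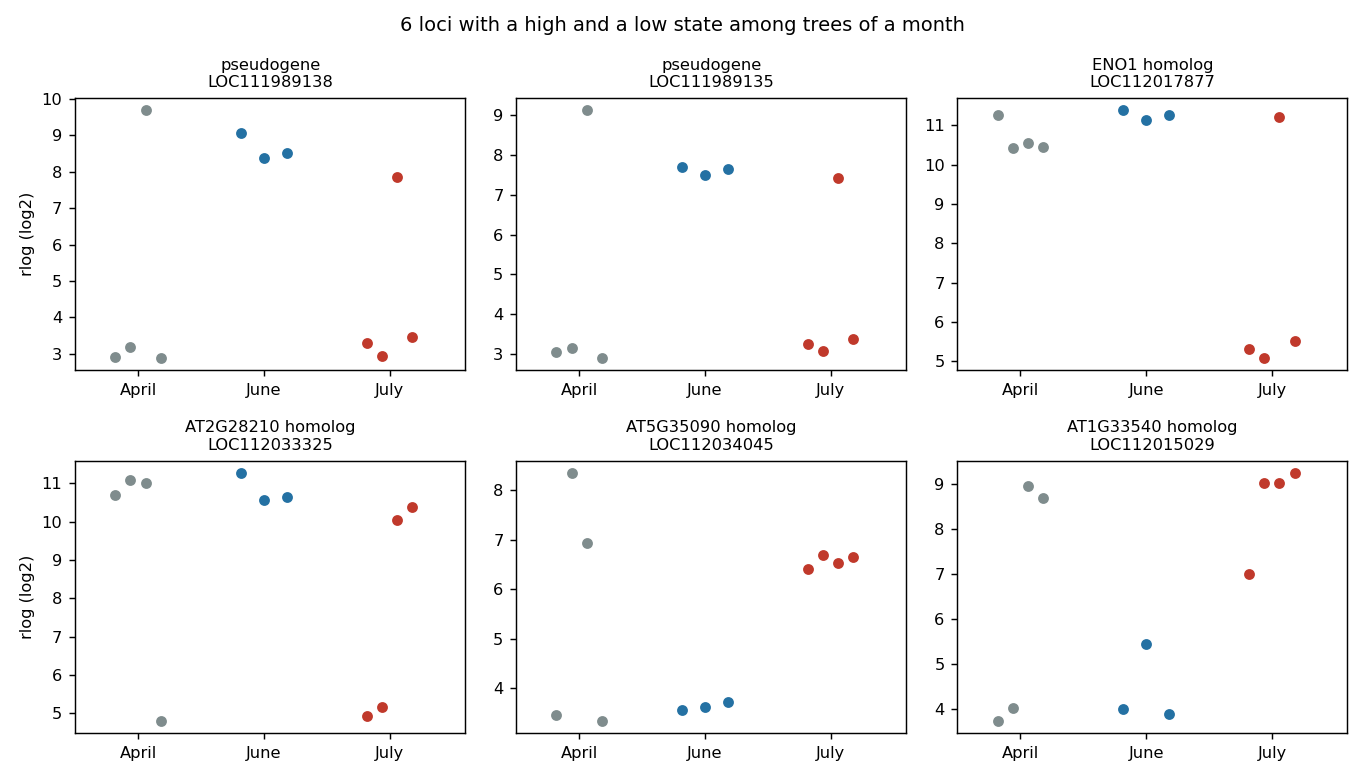
The rlog (log2 scale) of 6 loci with a large log2FC in each tree, by month from April to July. At each locus at least 1 month held both high and low trees, as at LOC112017877, where July replicate 3 was at 11.20 and the other July trees at 5.08 to 5.51.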

How the data were processed

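PolyA RNA of innercork from 11 trees (4 July, 3 June and 4 April) had been sequenced, 1 library per tree. FastQC 0.11.5, STAR 2.5.3a, DESeq2 and the TAIR10 annotation are named in the submitters' processing notes, and the reads were mapped to CorkOak1.0. The authors deposited regularized log (rlog) values from DESeq2, which are log2 values made from gene counts. No counts were used here, so a count test could not be run, and the rlog values do not give the depth of each library. Every column was mapped to a tree by its label, and 0 columns were left out.

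Loci with a mean rlog over the 11 trees of at least log2 of 10 were tested with limma 3.58.1 in R 4.3.3. The model had the month as factor over all trees, with moderated variances and a trend on the mean, and the contrast was July minus June. P-values were adjusted by Benjamini-Hochberg over 22426 loci. They set the July minus June difference against the spread between trees within a month, pooled over April, June and July trees. A locus passed where its adjusted p did not exceed 0.01 and its absolute log2FC exceeded 1. A locus was called without overlap where all July trees lay on one side of all June trees. The test was checked on simulated data. Python 3.11.15 with matplotlib 3.10.9 made the plots.

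The comparison, its tests and its gene lists were chosen with earlier results of these data known. The lists of core histones, DNA replication, WRI1 and carbon supply, and nucleolar particle proteins were added after values were seen, as were the split by level and the block by the numbers of the library names. The text names the locus that passed, the 12 loci in each direction with the largest t and the 12 with the largest log2FC among those without overlap and with an absolute log2FC above 1 (described in part), up to 6 members of each list without overlap, and families of 3 or more loci of which at least 50% did not overlap. XCP1, ANT, MYB9, XTH28, XTH30, ENO1, the other RPS8B loci, LTPG15, LOC112001048 and both TIP4;1 loci lie outside this rule. So do LOC112008682, LOC112038380, LOC112026070, RBCS3B, both SEOR1 loci and the second homologs of CYCB1;3 and GOLS1. The same holds for the overlapping homologs given beside H2A.X, HSP90-4, AT1G53540 and AT1G52560. All of these were chosen after their values were seen. Arabidopsis homologs are those in the deposited table, and 21787 of the tested loci have one. Biotypes came from a RefSeq gene table of another assembly (Cork oak 2.0), by locus name. Alternatives were other minimum levels, a pseudocount of 1, other thresholds, quantile normalization, a median shift per tree, the variance prior, weights per tree, a fit of June and July trees alone, the replicate number as a block and leaving out each tree.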

Additional observations from a re-analysis of the deposited data

Results flagged for a closer look

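The July trees were checked for a tree far from the other 3 by Dixon's ratio, in 80 results, and 7 passed its 95% critical value, which chance passes in about 1 of 20. July replicate 4 lay above the others in the mean over the early stress regulators, at 9.381 against 7.565 to 7.822 in the other July trees. It also lay above them in the mean over the jasmonate and ethylene genes, at 9.244 against 8.836 to 8.9. It lay below them at LOC112000223, a homolog of the raffinose synthase-type AT1G55740, at 5.108 against 8.42 to 8.975. July replicate 1 lay below the others in the mean over the phellem markers, at 16.65 against 17.0 to 17.05. It was also lowest at LOC112015029, a homolog of AT1G33540, at 7.007 against 9.021 to 9.253. July replicate 3 lay above the others at the pseudogene LOC111989135, at 7.432 against 3.069 to 3.39, and at the neighbouring pseudogene LOC111989138, at 7.846 against 2.926 to 3.462.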

How the results depend on the processing

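Leaving out each tree, other minimum levels, pseudocounts, normalizations and variance priors changed the direction of no locus that was named by the rule and did not overlap. Named loci with overlapping months were not part of this check, and their direction may depend on single trees. Medians of some lists changed sign without 1 tree, and those of light harvesting and sucrose supply also after quantile normalization, at 0.0294 and -0.03. The median was -0.0331 for the NAC and MYB switches without July replicate 3, 0.15 for early stress without July replicate 1, 0.0518 for the morning clock without June replicate 1, 0.0286 for the evening clock without July replicate 2, 0.0145 for abscisic acid without July replicate 2, 0.347 for xylem vessel without June replicate 1, 0.0724 for light harvesting without July replicate 3, and -0.0826 to 0.131 for sucrose supply. The count of loci that passed higher in July was 1, and 0 with weights per tree, 0 with the replicate block under either numbering and 0 without April replicate 2 together with July replicate 4, a setting added after the data were seen in which 1 locus passed lower. The log2FC of LOC112022594, 3.63 as reported, was then 3.60 with weights per tree, 3.634 with June and July trees alone, 3.68 with the replicate block by the sample titles, 3.641 with the block by the library names and 3.595 without that pair, with an adjusted p (limma, Benjamini-Hochberg) of 0.0217, 0.0777, 0.165, 0.216 and 0.0706, over 0.01 in each. Without that pair, loci higher in July at an unadjusted p under 0.05 numbered 1788, and loci lower in July at an unadjusted p under 0.05 numbered 1704. July and June trees with the same number in the titles correlated at 0.211, -0.0767 and 0.0402. The library names number the June trees 1, 3 and 4, and by these the pairs correlated at 0.211, 0.0534 and -0.06, so neither number was taken as a pairing.

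Leaving out 1 tree at a time, loci that passed were 0 to 1 higher and 0 to 1 lower, the log2FC of LOC112022594 was 3.39 to 4.055, and at an unadjusted p under 0.05 there were 653 to 1304 loci higher and 653 to 1311 lower. Other loci passed in single fits, namely LOC112017877 without July replicate 3, LOC112026070 (a small heat shock protein, -3.55) without July replicate 4, LOC111993933 (4.08) without June replicate 1 and LOC112018574 (2.60) without July replicate 1. Trees did not overlap at 1617 to 2263 loci higher and 1680 to 2345 lower, as fewer trees overlap less. Members higher without overlap were 16 to 26 for cell division and 7 to 14 for small heat shock proteins. Quantile normalization left 8 plastid fatty acid loci (15 as reported) and 7 suberin loci (13) lower without overlap. Over all alternatives, the list medians moved by more than the spread between trees in 20 fits and by less in 331. With 4 against 3 trees and a depth not known from these values, a locus without a passed test may still differ.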
